A study of Mus musculus with 15 samples.

Results

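The homeodomain genes of the early eye followed here were Rax, Six3, Six6, Vax1, Vax2 and Hmx1. They were taken by symbol from the transcript tables of mouse embryo sections, and all 6 were among the 30534 genes listed in at least 1 table. The study read transcripts by spatial barcoding: 2 sets of microfluidic channels were laid over a frozen section at right angles, and each point where they meet received a unique pair of barcodes. Such a point, called a pixel, can hold several cells or parts of cells. The 11 transcript libraries came from untreated embryos at embryonic day 10 (E10) with pixels of 10 µm (2 libraries), 25 µm (1) and 50 µm (3), at E11 with pixels of 10 µm (2) and 25 µm (2), and at E12 with pixels of 50 µm (1). Antibody tags were counted in 4 further libraries, all of E10 sections.

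The eye forms from a single field in the front of the neural plate, which splits and bulges out on each side as the optic vesicle. The vesicle then folds into a cup with an inner neural retina and an outer pigment epithelium, joined to the brain by the optic stalk. Rax, a paired-type homeodomain factor, is needed for the vesicle to form, and Six3 and Six6 are sine oculis homeodomain factors of the eye field, the ventral forebrain and the pituitary. Vax1 and Vax2 are closely related factors of the optic stalk and the ventral retina. Hmx1 is a factor of the nasal retina, the outer ear and the cranial and dorsal root ganglia.

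Homeodomain proteins commonly bind DNA around the letters TAAT. The 250 bases before the annotated start of 4 members are shown here because the members differ widely in base content and in these letters. They come from RefSeq on build GRCm38.p6 and are written 5′ to 3′ on the gene's strand, with TAAT on either strand (TAAT or ATTA) in capitals. Rax and Vax2 are named only.
Six3 (chr17:85620584-85620833, plus strand): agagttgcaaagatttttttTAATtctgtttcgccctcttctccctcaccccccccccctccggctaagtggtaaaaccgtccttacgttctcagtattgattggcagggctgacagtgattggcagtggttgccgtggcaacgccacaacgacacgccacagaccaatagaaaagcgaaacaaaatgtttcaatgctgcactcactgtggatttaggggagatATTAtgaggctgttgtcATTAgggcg
Six6 (chr12:72939632-72939881, plus strand): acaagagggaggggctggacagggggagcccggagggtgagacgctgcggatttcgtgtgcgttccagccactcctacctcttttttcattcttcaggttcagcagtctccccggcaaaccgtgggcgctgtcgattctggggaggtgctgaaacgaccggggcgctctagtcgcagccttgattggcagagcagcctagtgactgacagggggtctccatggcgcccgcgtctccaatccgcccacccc
Vax1 (chr19:59170398-59170647, minus strand): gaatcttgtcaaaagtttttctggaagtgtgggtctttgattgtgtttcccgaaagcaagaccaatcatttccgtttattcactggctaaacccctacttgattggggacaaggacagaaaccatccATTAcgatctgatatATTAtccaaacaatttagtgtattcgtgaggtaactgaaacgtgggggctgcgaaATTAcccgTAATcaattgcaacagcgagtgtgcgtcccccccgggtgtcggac
Hmx1 (chr5:35388611-35388860, plus strand): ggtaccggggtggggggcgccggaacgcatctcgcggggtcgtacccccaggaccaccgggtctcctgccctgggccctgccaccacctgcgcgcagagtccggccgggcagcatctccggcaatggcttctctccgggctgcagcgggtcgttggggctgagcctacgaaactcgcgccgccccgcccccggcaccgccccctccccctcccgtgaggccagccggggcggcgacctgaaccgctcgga
The Vax1 stretch held 4 of these sites and the Six3 stretch held 3, whereas Six6 and Hmx1 held 0. TAAT on either strand was found in 54.9% of the 32851 promoters of this length in the RefSeq table. The palindrome TAATTA, which contains the same letters on both strands, was in none of the 4 stretches and in 4.84% of all promoters. The share of G and C was 44.8% for Vax1, 48.8% for Six3, 62.8% for Six6 and 75.6% for Hmx1, against a median of 52.4% over all promoters. The Six3 stretch overlaps an exon of the antisense gene Gm28528. It also lies inside the span that GENCODE, given below, assigns to Six3. A match of letters is a description of the sequence and says nothing of which protein binds there.

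The libraries held 1563489 to 11998765 counts in 829 to 2271 tissue pixels, with a median of 843.5 to 11332 counts per pixel. Neither the embryo nor the plane of a section is given in the labels, and genes of other tissues showed that the sections differ. The summed level of 8 liver genes was 8.25 to 137 counts per 1000000 (CPM) in the 6 E10 libraries and 59.1 CPM in E11 10 µm replicate 1, but 1224 to 3817 CPM in the other E11 libraries and E12. The summed level of the forebrain genes was 40.8 to 174 CPM in the first 7 libraries and 0.790 to 11.2 CPM in the other 4. Stage and the part of the embryo on the section therefore cannot be told apart. E11 10 µm replicate 1 stands apart from the other E11 libraries in each member below, and the stage and width comparisons are also given without it. Each library was left out in turn, but this one is singled out on the members' own levels. Its spread leaves the shared fit with it. The p-values without it are therefore a description and no support for a stage or width difference. P-values measure the spread between these libraries, which the labels do not tie to separate embryos.

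Six3, the eye field and ventral forebrain factor, reached 117 and 84.7 CPM in the E10 10 µm libraries, 78.7 CPM in the E10 25 µm library, and 34.8, 47.3 and 68.0 CPM in the E10 50 µm libraries. At E11 it was 72.7 and 2.55 CPM in the 10 µm libraries and 0 and 0.260 CPM in the 25 µm libraries, and at E12 it was 1.85 CPM. The 6 E10 libraries and E11 10 µm replicate 1 all lay above the remaining 4, with no overlap of their intervals. The 95% counting interval of E10 10 µm replicate 1 lay above that of the next library, while those of E10 10 µm replicate 2, E10 25 µm, E11 10 µm replicate 1 and E10 50 µm replicate 3 each overlapped with their neighbour in that order. These intervals cover counting error alone. Scattered counts that are not read as expression, treated below, are part of all levels, ranks and fold changes given here.

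Six6, the closest relative of Six3 among the members, varied more between E10 sections. Its level was 46.9 and 21.9 CPM at 10 µm, 16.0 CPM at 25 µm, and 2.82, 15.9 and 1.97 CPM at 50 µm. E11 10 µm replicate 1 had 28.0 CPM (72 counts), replicate 2 had 0.729 CPM (2 counts), both E11 25 µm libraries had 0, and E12 had 0.308 CPM. E10 50 µm replicate 2 lay with the 25 µm library and above the other 50 µm libraries, whose intervals did not reach it. The pigment genes moved with Six6 here: their sum was 46.1 CPM in that library against 4.14 and 6.96 CPM in the other E10 50 µm libraries. The part of how much eye a section holds in this difference was not tested.

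Rax, the factor of the optic vesicle, gave 11.4 and 7.74 CPM in the E10 10 µm libraries, 12.8 CPM in the 25 µm library, and 4.41, 2.03 and 4.51 CPM in the 50 µm libraries. E11 10 µm replicate 1 had 7.39 CPM (19 counts), and the other E11 libraries and E12 had at most 1 count each. The intervals of the 3 highest E10 libraries and E11 10 µm replicate 1 overlapped along the order of levels. A total of 0 counts in E11 10 µm replicate 2 allows up to 1.09 CPM, at 3 counts of that library's total.

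Vax1 and Vax2, the stalk and ventral pair, were rare at E10 and highest in E11 10 µm replicate 1. Vax1 gave 2.92 and 2.26 CPM at 10 µm, 5.12 CPM at 25 µm and 1.23, 1.07 and 0.564 CPM at 50 µm, and Vax2 gave 3.50, 3.59, 5.76, 0.529, 1.79 and 1.03 CPM in the same libraries. In E11 10 µm replicate 1 the pair reached 8.17 CPM (21 counts) and 10.1 CPM (26 counts). In the other 4 libraries, each was at 0 or at 1 count. Along the order of levels, every library's interval overlapped with that of its neighbour for both genes. The interval of E11 10 µm replicate 1 still lay above those of both E10 10 µm libraries. For Vax1 it was 5.06 to 12.5 CPM, against 2.03 to 4.06 and 1.17 to 3.96 CPM. For Vax2 it was 6.61 to 14.8 CPM, against 2.52 to 4.73 and 2.16 to 5.60 CPM.

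Hmx1 was the one member that was counted in all 11 libraries. Its level was 5.25 and 6.60 CPM at E10 10 µm, 7.68 CPM at E10 25 µm, and 1.41, 2.62 and 0.658 CPM at E10 50 µm. At E11 it was 14.0 and 2.19 CPM at 10 µm and 2.37 and 3.26 CPM at 25 µm, and at E12 it was 0.462 CPM (3 counts). The E11 25 µm levels lie inside the E10 range, where Rax, Six3, Six6, Vax1 and Vax2 together gave 1 and 2 counts.

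**Figure D1:**
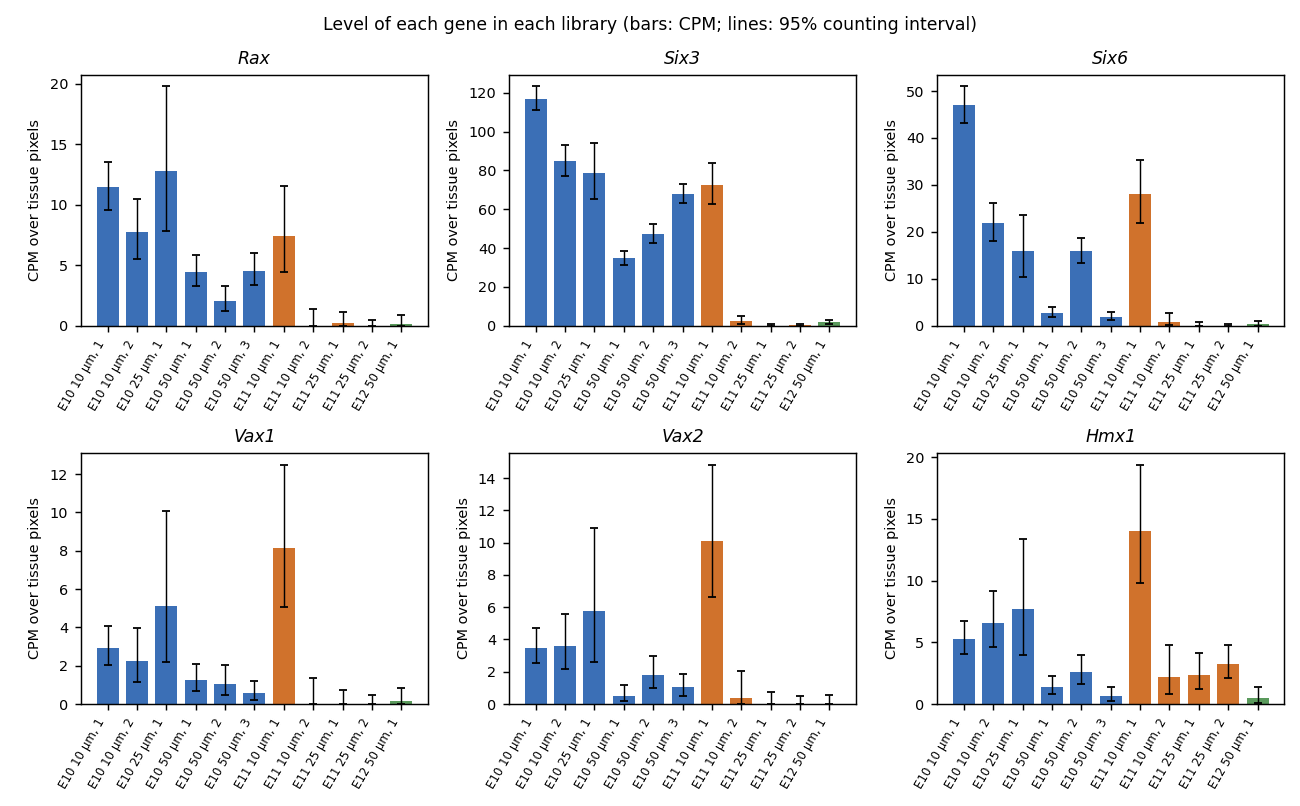
Level of each member in CPM (vertical axes, linear, 1 panel per gene) in each of the 11 transcript libraries (horizontal axis), with bars starting at 0 and lines for the 95% counting interval. Rax, Six3, Six6, Vax1 and Vax2 are close to 0 in 4 of the 5 libraries of E11 and E12, whereas Hmx1 has counts in all 11.

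Per kilobase of exon, Six3 led at E10 and the order of the other members varied. In E10 10 µm replicate 1 the level was 21.5 CPM per kb for Six3, 11.7 for Six6, 3.31 for Hmx1, 2.82 for Vax2, 2.61 for Vax1 and 1.95 for Rax. That order was the same in E10 10 µm replicate 2 and in E10 50 µm replicate 2, and other orders were found in the remaining E10 libraries. Six3 ranked first in all 6 E10 libraries, E11 10 µm replicate 1 and E12, and Hmx1 ranked first in the other 3 E11 libraries. E11 10 µm replicate 1 had a flatter profile, with 13.4 CPM per kb for Six3, 8.82 for Hmx1, 8.14 for Vax2, 7.31 for Vax1, 6.99 for Six6 and 1.26 for Rax. Exon length was taken from GENCODE M21, and where the reads fall along a transcript was not recorded in the tables.

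On build GRCm38 (GENCODE M21), the gene spans are chr17:85613608-85629302 for Six3, chr12:72939892-72944899 for Six6, chr6:83711264-83738313 for Vax2 and chr5:35389108-35399730 for Hmx1 on the plus strand, and chr19:59166187-59170056 for Vax1 on the minus strand. The stretches shown above were placed by RefSeq starts, which differ from the starts of these spans. Some members have an overlapping gene, and the strand of counting is not given in the sources used here. Six6 overlaps 4930447C04Rik on the other strand, which had 203 counts in E10 10 µm replicate 1 against 563 for Six6, and still had 51 counts at E12 against 2 for Six6. Six3 overlaps Six3os1 on the other strand (13 counts in E10 10 µm replicate 1), and Hmx1 overlaps Gm43377 on the same strand (11 counts there). Raxos1 and Vax2os were at 0 in all 11 libraries. How reads in the shared bases were assigned is unknown.

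The first comparison asked how the members differ between E11 and E10 within a pixel width. At 10 µm the log2 fold change of E11 over E10 was -1.43 for Rax, -1.47 for Six3 and -1.31 for Six6, and 0.59 for Vax1, 0.51 for Vax2 and 0.41 for Hmx1. None of the 6 passed edgeR's quasi-likelihood test at an adjusted p (Benjamini-Hochberg) of 0.05, where 3.33% of the 18233 genes tested did, and the lowest adjusted p was 0.438, for Rax. The members with an unadjusted p under 0.05 numbered 0, and DESeq2 called 0, where it called 3.22% of all genes. The share of all genes with an unadjusted p under 0.05 is not given here or below. Numbers of genes at that threshold therefore have no share to be read against. The E11 libraries span both ranges: for Six3, replicate 1 was 28.5-fold higher than replicate 2 (95% counting interval 13.6 to 71.9), and for Six6 it was 38.4-fold higher (10.3 to 323). Without replicate 1 the E11 arm is 1 library, which is assumed to vary like the other groups. Six3 was then -5.27, and Rax had 0 counts in that library. The sign for Vax2 and Hmx1 turned to -3.20 and -1.40, and that for Vax1, which had 0 counts there, turned too. In bulk values such as these, fewer cells of a type and less RNA per cell cannot be told apart.

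At 25 µm the 1 E10 library had 20 counts of Rax, 123 of Six3, 25 of Six6, 8 of Vax1 and 9 of Vax2, and the 2 E11 libraries had 1, 2, 0, 0 and 0 in all. Pooled over libraries, Six3 was 501-fold higher at E10 (counting interval 136 to 4186) and Rax was 163-fold higher (26.1 to 6757). For Six6, Vax1 and Vax2, with 0 counts at E11, the lower end of the counting interval was 51.3-fold, 13.9-fold and 16.1-fold. Hmx1 was 2.64-fold higher (1.26 to 5.18). No member passed the edgeR test, in which 0.455% of genes did. The adjusted p was 0.110 for Rax and 0.156 for Six3, and the single E10 library has no replicate of its own. In this contrast 5 members had an unadjusted p under 0.05, and DESeq2 called 5, where it called 1.24% of all genes. Without E11 10 µm replicate 1, whose spread enters the shared fit, edgeR's adjusted p was 0.0056 for Rax and 8.07e-05 for Six3.

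Over the mean of both widths, Rax was the member that passed the test, lower at E11. Its log2 fold change was -4.13 ± 0.95 (SE; edgeR adjusted p 0.0403), in a fit where 3.60% of genes passed and 1.67% passed as lower. That call held in 7 of 14 alternatives, with an adjusted p from 4.04e-08 to 0.124. Among the fits that each left out 1 library, it held without either E11 10 µm library and was lost without any 1 of the E10 10 µm, E10 50 µm or E11 25 µm libraries (adjusted p 0.0571 to 0.124). Six3 was -5.05 ± 1.12 with an adjusted p of 0.0624, and without E11 10 µm replicate 1 it passed (adjusted p 1.43e-05). The adjusted p was 0.109 for Vax2, 0.139 for Vax1 and 0.206 for Six6, which all had 0 counts in the E11 25 µm libraries, so that their fitted values depend on the prior count and are not given. Without E11 10 µm replicate 1 it was 0.00566 for Vax1, 0.00879 for Vax2 and 0.0572 for Six6. Hmx1 was -0.41 with an adjusted p of 0.735, and 0.208 without that library. DESeq2 called 4 of the members in this contrast and 4.62% of all genes, and 5 had an unadjusted p under 0.05 in edgeR. The median over all genes tested was 0.05.

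Of 8 genes that work with the members in the eye field 0 passed edgeR's adjusted threshold and 3 had an unadjusted p under 0.05, with a median of -1.57. Among neural retina genes, Lhx2, a LIM homeodomain factor of the optic vesicle, was lower at E11 (-2.57, edgeR adjusted p 0.0160). Of the genes of the dorsal and ventral eye, 2 of 9 tested were lower, Foxd1 (-2.08, adjusted p 0.0133), a forkhead factor of the temporal retina, and Cyp26a1 (-2.41, 0.0469), which breaks down retinoic acid. Of 8 pituitary and hypothalamus genes tested 1 was lower, Hesx1 (adjusted p 0.0354), a factor of the pituitary pouch with 0 counts in all 4 E11 libraries. The forebrain genes Nkx2-1 (-4.30, adjusted p 0.0291) and Fezf2 (-5.80, 0.0457) were lower as well, 3 of 5 forebrain genes being called. Of genes of other tissues, 4 of 7 neuron genes were lower, Ina, Elavl4, Dcx and Stmn2 (-1.20 to -1.69), and 2 of 9 red cell genes. The part of these tissues in the member differences was not tested.

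The other widths and stages gave no call for a member. Between 10 and 50 µm at E10, all 6 members had a log2 fold change above 0 at 10 µm, from 1.03 for Six3 to 2.31 for Six6, but the lowest adjusted p was 0.303 (Hmx1), in a test that 0.110% of genes passed. The group means were 101 ± 22.8 CPM (SD, n = 2) and 50.0 ± 16.8 CPM (n = 3) for Six3, and 34.4 ± 17.7 and 6.88 ± 7.78 CPM for Six6. Between 10 and 25 µm at E11, where 2.07% of genes passed, the adjusted p was 0.0656 for Vax2, which had 0 counts at 25 µm, and 0.126 for Six3 (log2 fold change 7.63), and DESeq2 called 5 members and 1.88% of all genes. Among the E11 libraries, only replicate 1 at 10 µm had more than 7 counts of either gene. Without that library the adjusted p was 0.481 for Vax2 and 0.0906 for Six3 (log2 fold change 3.83), and 0 members were called. Between E12 and E10 at 50 µm, where 2.14% of genes passed, Rax was -4.44 (adjusted p 0.267) and Six3 was -4.79 (0.278). Without E11 10 µm replicate 1, the E12 contrast gave an adjusted p of 0.0342 for Rax and 0.000658 for Six3. E12 is 1 library, with 1 count of Rax, so these values rest on the spread of the other groups, from which the most variable E11 library had been taken. DESeq2 called 0 members in the E12 and in the E10 width contrast, where it called 1.75% and 1.34% of all genes, and the members with an unadjusted p under 0.05 numbered 2 and 1. Counted over libraries, Six3 was 27.0-fold higher at E10 than at E12 (15.4 to 52.4), and Hmx1 was 3.21-fold higher (1.03 to 16.1).

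Within the sections, the members were spread over many pixels but concentrated in a few places. Six3 had at least 1 count in 33.4% of the tissue pixels of E10 10 µm replicate 1, 15.6% of those of replicate 2 and 10.0% of those of E11 10 µm replicate 1. After thinning each pixel to 1000 counts and leaving out shallower ones, these shares were 10.4% of 2173, 8.18% of 1834 and 6.83% of 1025 pixels. The scattered counts were set beside windows rich in red cell or heart muscle genes, which were not shown to be free of other tissue. In windows rich in red cell genes in E10 10 µm replicate 1, 11.9% of 109 pixels had a count (51.9 CPM, median depth 2830 counts), and in windows rich in heart muscle genes 55.0% of 109 pixels did (138 CPM, median depth 5972). Those heart windows held 9748 CPM of the heart genes, against 2470 CPM over the library. Outside the 2 patches described below, Six3 was 105 CPM, which lies between its values in these windows and is not read as expression. Neither is the level of Six6 (35.0 CPM outside, 20.2 and 51.1 CPM in the same windows). The patches held 94 and 108 of the 1403 Six3 counts and 65 and 96 of the 563 Six6 counts. Hmx1 had 0 counts in the red cell windows and 1 in the heart windows, and so had Vax2. Six3 in heart windows differed by library. It was 92.3 CPM in E10 10 µm replicate 2, 38.7 CPM at E10 25 µm, and 10.7, 9.54 and 29.3 CPM at E10 50 µm. It was 62.4 CPM in E11 10 µm replicate 1 and 0 in the other E11 libraries and E12. The heart genes themselves ranged from 138 to 53764.5 CPM in these windows. The part of such counts in the stage and width differences was not tested.

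At least 1 member was counted in 911 pixels (41.9%) of E10 10 µm replicate 1, in 452 (19.9%) of replicate 2 and in 254 (15.5%) of E11 10 µm replicate 1. Pixels with 3 or more members numbered 71, 14 and 5. In E11 10 µm replicate 2, both E11 25 µm libraries and E12, 9 to 19 pixels (0.528 to 1.24%) had a member, and none of them had more than 1. In E10 10 µm replicate 1, 68.4% of the 114 pixels with Rax also had Six3 (exact interval 59.1 to 76.8%), against 31.4% of those without Rax. Pixels with Rax were also deeper, with a median of 6543 counts against 3953. Vax1 and Vax2 shared 0 of the 33 pixels with Vax1, which allows a share of up to 10.6% at this depth.

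How clustered a gene is was measured by Moran's I, the correlation of a pixel's level with that of its 4 neighbours. In E10 10 µm replicate 1 it was 0.252 for Six6 (rank 59 of 12432 genes with enough counts), 0.226 for Six3 (rank 76), 0.111 for Rax (298) and 0.0765 for Hmx1 (564). In replicate 2 it was 0.192 for Six6 (rank 39 of 9968) and 0.142 for Six3 (78). In E11 10 µm replicate 1, Six6 had 0.156 (rank 47 of 7724), whereas Six3 had 0.0448 (rank 937). Six3 reached its highest value in E10 50 µm replicate 3, with 0.531 (rank 28 of 12122). Over the 14 pairs of a member and a library with at least 50 counts, 12 lay above the 95th percentile of all genes in that library.

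**Figure D2:**
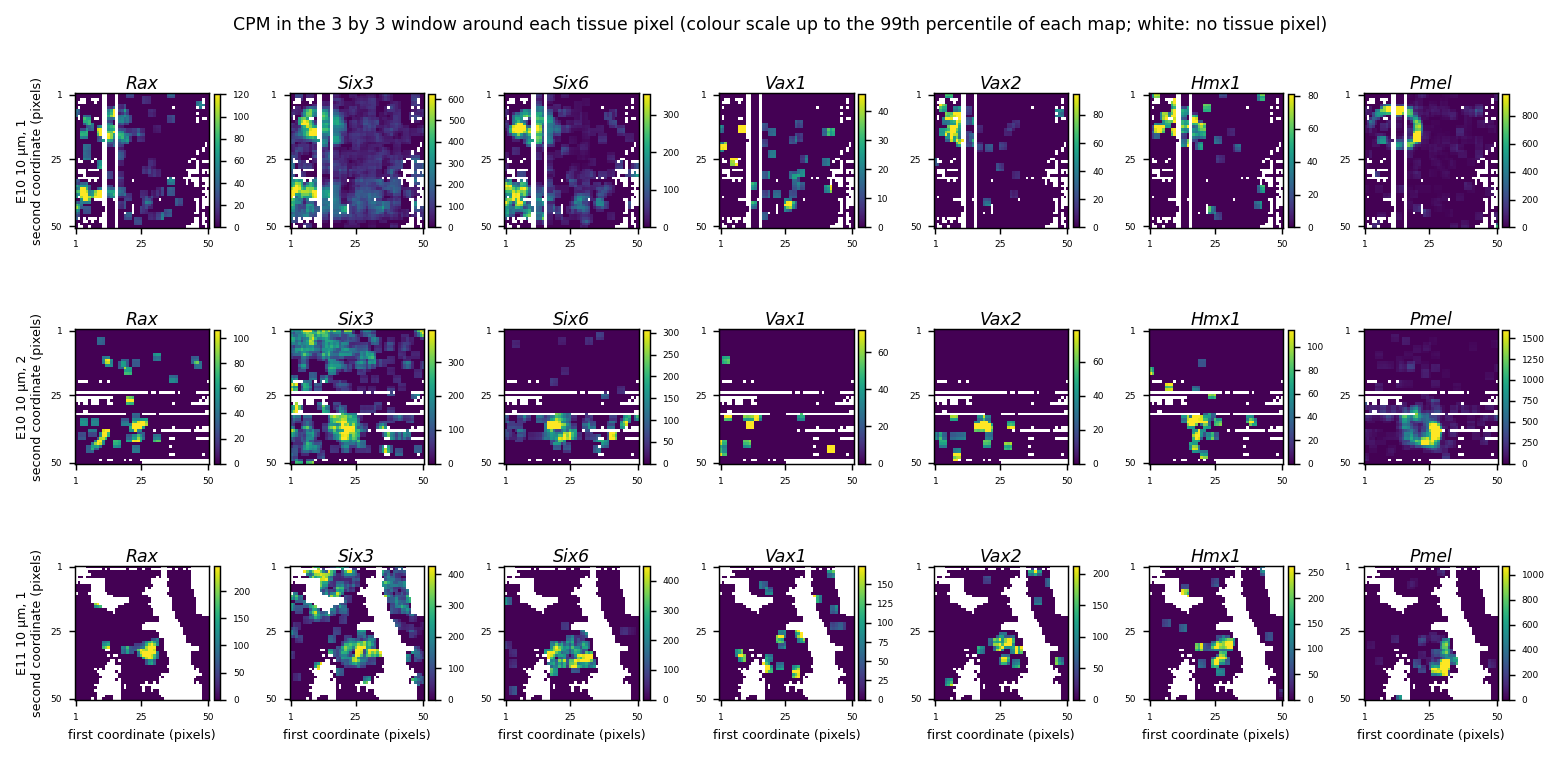
Maps of CPM in windows of 3 by 3 pixels (colour, 1 scale per panel, up to the 99th percentile of the map) across the 50 by 50 grid, for the 6 members and the melanosome gene Pmel in 3 libraries with 10 µm pixels; white marks positions that are not tissue pixels, whole rows and columns of low counts included. Six6, Rax and Six3 have 2 foci in E10 10 µm replicate 1, and Hmx1 and Vax2 have 1 of them, beside the windows rich in pigment genes. In replicate 2, Six3 also covers a broad area at low second coordinates, where Six6 is near 0.

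Six6-rich windows in E10 10 µm replicate 1 covered 109 pixels, of which all but 1 formed 2 patches with different sets of members. They were chosen on Six6 after the maps had been seen, so the values are a description with no test. The first patch held 58 pixels (median depth 3435 counts), none of them in windows rich in pigment genes, and the other held 50 pixels (4088.5 counts), 2 of them in such windows. Rax was 57.0 CPM (13 counts) in the first and 63.1 CPM (18 counts) in the second, against 9.23 CPM outside. Six3 was 412 and 378 CPM against 105 CPM outside, and Six6 was 285 and 336 CPM against 35.0 CPM. The ratios of the first to the second patch were 0.904 for Rax (counting interval 0.407 to 1.95) and 1.09 for Six3 (0.818 to 1.45), so no difference in these was detectable at this depth.

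Vax2 and Hmx1 had counts in the second patch and 0 in the first. Vax2 had 12 counts there (42.0 CPM) and Hmx1 had 14 (49.1 CPM), and a count of 0 in the first patch allows up to 13.2 CPM. The ratio of the first to the second patch was 0 for both, with a counting interval that reached 0.451 for Vax2 and 0.377 for Hmx1. Vax1 had 0 and 2 counts. The first patch carried Shh at 180 CPM, Nkx2-1 at 101 CPM, Nkx2-4 and Lhx3 both at 52.6 CPM and Hesx1 at 30.7 CPM, genes of the ventral diencephalon and of the pituitary pouch. The second patch carried Pax6 at 463 CPM, Dapl1 at 200 CPM, Rorb at 175 CPM and Pmel at 119 CPM, genes of the neural retina and pigment epithelium, and it had 0 counts of Nkx2-1, Nkx2-4 and Lhx3.

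**Figure D3:**
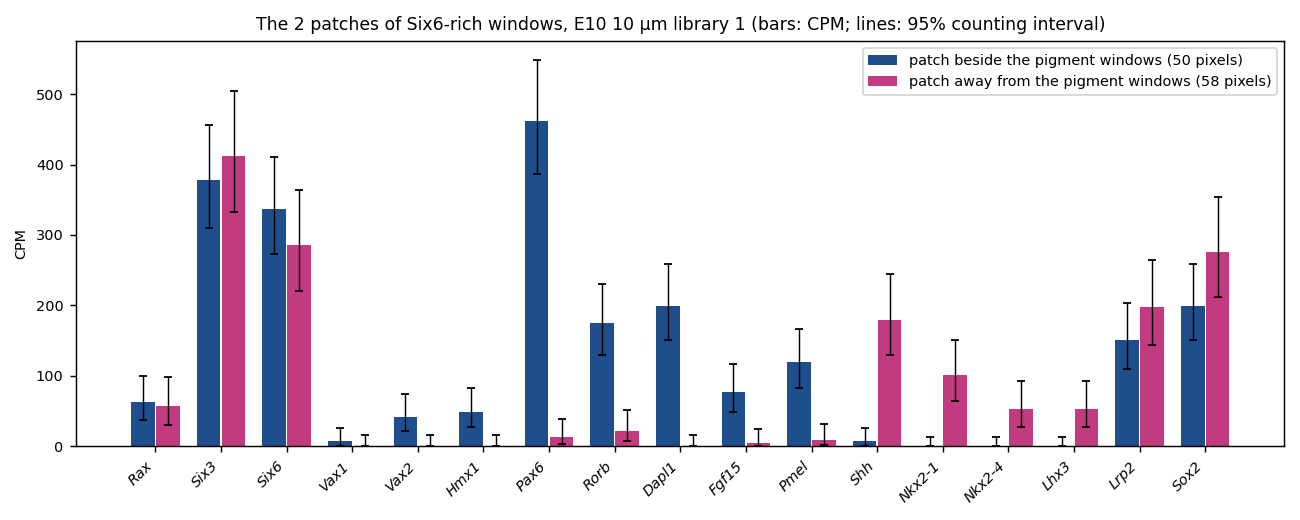
Level in CPM (vertical axis, linear from 0) of 17 genes (horizontal axis) in the 2 Six6-rich patches of E10 10 µm replicate 1, the first away from the pigment windows and the second beside them, with bars for the level and lines for the 95% counting interval. Rax, Six3 and Six6 lie close together in both patches, whereas Shh and Nkx2-1 are high in the first (180 and 101 CPM) and Pax6, Hmx1 and Vax2 in the second (463, 49.1 and 42.0 CPM).

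The Six6-rich patch of E10 10 µm replicate 2 had Vax2 and Hmx1 in it. It held 78 pixels, 49 of them in pigment windows, with Rax at 33.5 CPM, Six3 at 289, Six6 at 247, Vax2 at 33.5 (8 counts) and Hmx1 at 71.2 CPM (17 counts). Pax6 was 381 CPM there, and Nkx2-1, Shh and Lhx3 had 0 counts. Outside it, Rax was 6.55 CPM, Six3 74.6 CPM, Six6 10.1 CPM and Hmx1 3.57 CPM. In E10 50 µm replicate 2, the patch of 38 pixels had Six3 at 153 CPM, Six6 at 101, Hmx1 at 22.2 and Rax at 6.05 CPM, with Nkx2-1 at 14.1 and Shh at 12.1 CPM.

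Levels were then taken in rings around the centre of the pigment-rich windows. In E10 10 µm replicate 1, Hmx1 was 47.8 CPM within 3 pixel steps, 33.2, 16.0, 11.2 and 1.51 CPM in the next rings of 3 steps, and was 1.21 CPM beyond 15 steps. Rax was 56.5 and 57.2 CPM in the first 2 rings and 13.1 CPM in the next. Vax2 peaked further out, with 4.35, 9.23, 21.9 and 9.16 CPM, and Vax1 stayed between 1.02 and 4.35 CPM in every ring. Pmel was 65.2 CPM at the centre and 508 CPM in the second ring, whereas Six6 was 178 and 168 CPM in the same rings. Six6 was thus level over the first 2 rings within its counting interval, and Pmel was higher in the outer one.

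In E10 10 µm replicate 2, Six3 went from 373 to 225 and 68.8 CPM over the first 3 rings, Six6 from 214 to 185 and 29.9 CPM, and Hmx1 from 45.2 to 59.1 and 20.9 CPM. Vax2 was here highest at the centre, with 33.9, 19.7 and 8.98 CPM. In E11 10 µm replicate 1, Rax was 81.3, 81.8 and 57.7 CPM and Vax2 54.2, 54.5 and 67.3 CPM. Vax1 was 27.1, 13.6, 28.9 and 47.8 CPM over the first 4 rings of that library, and 4.23 CPM beyond 15 steps. The innermost rings hold 22, 29 and 29 pixels, so single steps of the rarer genes rest on few counts.

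**Figure D4:**
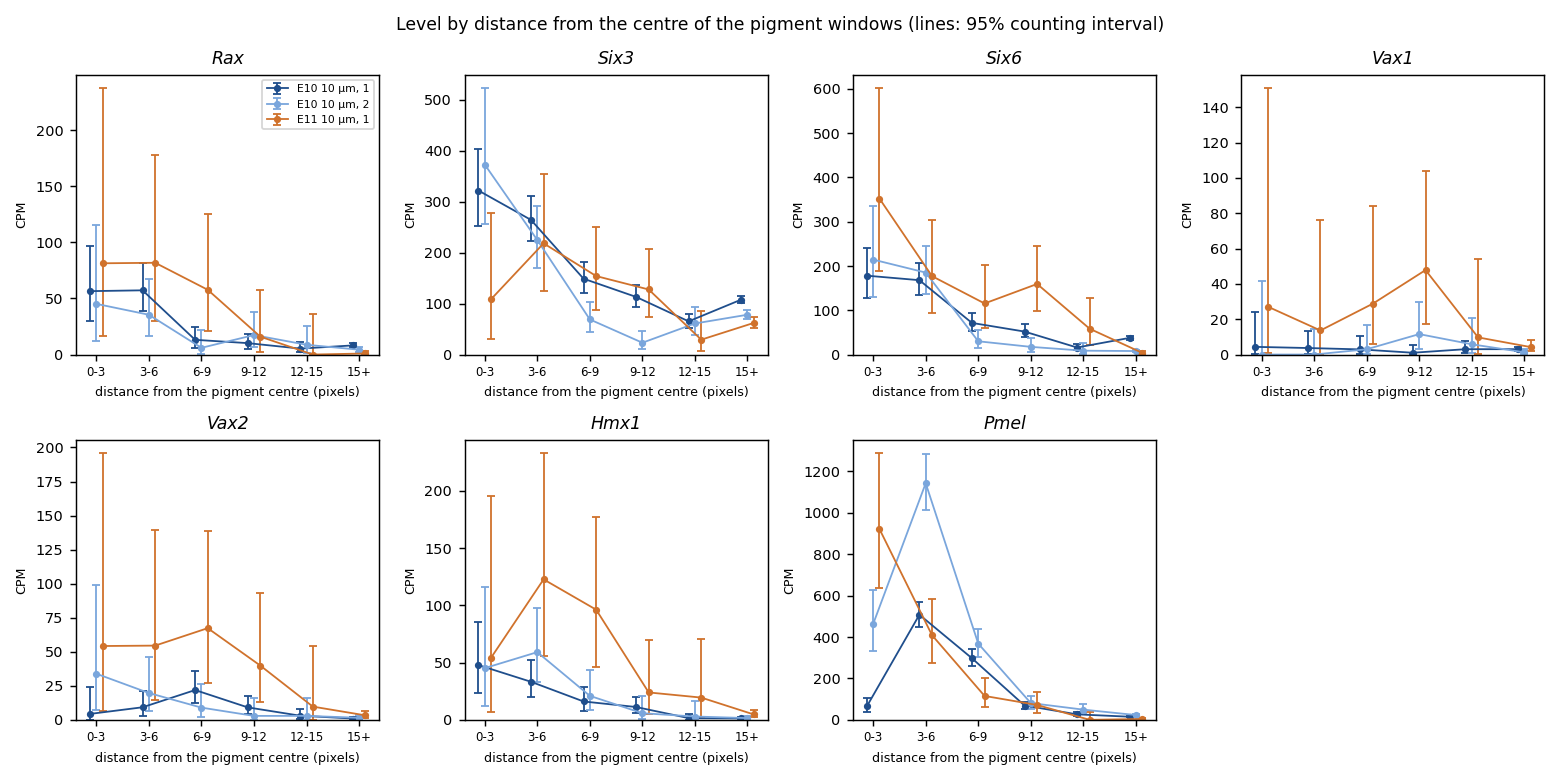
Level in CPM (vertical axis) by distance in pixel steps from the centre of the pigment-rich windows (horizontal axis, rings of 3 steps) for the 6 members and Pmel, with 1 line per library for 3 libraries with 10 µm pixels and upright lines for the 95% counting interval. Hmx1 in E10 10 µm replicate 1 falls from 47.8 CPM at the centre to 1.21 CPM beyond 15 steps, and Vax2 in the same library peaks at 21.9 CPM in the third ring.

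The genes most like a member were sought among windows, by Pearson's r of log2(CPM + 100), for members with at least 100 counts in a 10 µm library. For Rax, in E10 10 µm replicate 1, they were Six6 (r = 0.54), Six3 (0.52) and Lrp2 (0.38), a cell surface receptor of the forebrain. For Six6 in both E10 10 µm libraries, ranked by the lower value, they were Rorb (0.41), Cp (0.41) and Dapl1 (0.40), and for Six3 they were Dapl1 (0.31), Six6 (0.30) and Rorb (0.30). The r of Six3 with Six6 was 0.70 in replicate 1 and 0.30 in replicate 2. Windows overlap and share a library and its depth, so these values describe the sections and carry no test. Vax1, Vax2 and Hmx1 had too few counts.

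Domains were then defined without the members, as the top 5% of windows by the summed share of a list of other genes, and counts inside and outside were compared across libraries with the library as a block. Retina windows, drawn on 5 neural retina genes, could be drawn in 11 libraries. Lhx2, which the forebrain also expresses, gave 50.4 to 85.4% of the counts of this list in the E10 libraries. Of the members 1, Six3, passed the filter on low counts and could be tested there. Six3 was 273 CPM inside against 105 CPM outside and 157 against 81.3 CPM in the E10 10 µm libraries, and 194 against 68.5 CPM in E11 10 µm replicate 1. In the other E10 libraries it was 72.3 against 79.1, 82.8 against 32.6, 64.7 against 46.3 and 109 against 65.7 CPM. It was thus higher inside in 5 of 6 E10 libraries, with the 25 µm library as the exception. The remaining 4 libraries had at most 12 counts of Six3 each. Retina and pigment windows are not separate, since 34.9% and 25.2% of the retina window pixels of the E10 10 µm libraries also lay in pigment windows, and 2.38 to 31.0% in the other E10 libraries. In E11 25 µm replicate 2 and E12, 0 did, and 28 of 69 and 14 of 70 pixels lay in face mesenchyme windows. In E11 10 µm replicate 1, 1 of 80 retina window pixels lay in pigment windows and 12 in face mesenchyme windows. Lhx2 gave 31.4% of the counts of the list in that library. Whether its retina windows hold retina was not tested.

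The log2 fold change of Six3 in retina windows was 0.95 ± 0.16 (SE; edgeR adjusted p 5.56e-05), where 2.18% of 10277 genes passed and 0.292% passed as higher. The call was lost with the top 2% of windows (0.90, adjusted p 0.296) and with windows drawn on Lhx2 alone (-0.01, adjusted p 0.996; 10 libraries, 2.73% of genes passed) or on another single gene of the list. It held in the remaining 17 of the 19 alternatives reported. With Lhx2 taken out of the list, in 9 libraries where 0.695% of genes passed, Six3 was 1.30 (adjusted p 3.47e-09) and Six6, which then passed the filter, was 2.32 (1.15e-07). The settings on single genes and without Lhx2 were chosen after seeing the data. With no filter on low counts, likewise chosen after seeing the data, in which 4.90% of genes passed, Hmx1 was 1.79 (adjusted p 0.00229), Six6 1.04 (0.0119), Rax 1.03 (0.0877), Vax2 0.97 (0.285) and Vax1 0.12 (0.909). Six6 was higher inside in 3 of 6 E10 libraries and 1 of 4 E11 libraries, and Hmx1 in 4 of 6 and 2 of 4. The forebrain factor Fezf2 (1.70) rose in the retina windows too, and 7.21 to 23.8% of the retina window pixels of the E10 libraries also lay in forebrain windows. The part of the forebrain in the Six3 difference was not tested. The neuron list was lower in all 7 of its genes.

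Pigment windows, drawn on 9 melanosome and pigment epithelium genes, could be drawn in 9 libraries. Six6 and Six3 could be tested, and both rose. Six6 was 90.5 CPM inside against 44.2 outside and 128 against 15.1 CPM in the E10 10 µm libraries, 28.3 against 15.4 CPM at 25 µm, and 3.19 against 2.81, 74.1 against 11.5 and 17.7 against 1.55 CPM at 50 µm. In E11 10 µm replicate 1 it was 281 against 20.1 CPM. It was higher inside in all 6 E10 libraries and in that E11 library. Some of these differences rest on few counts: the Six6 totals were 25 at E10 25 µm and 32 and 21 in E10 50 µm replicates 1 and 3. The pigment windows of E10 50 µm replicate 1 held 14 counts of the pigment genes. Six6 was 0 inside in E11 25 µm replicate 2 and E12, but these libraries had only 0 and 2 Six6 counts in all.

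The log2 fold change was 2.38 ± 0.33 for Six6 (edgeR adjusted p 0.000447) and 0.85 ± 0.17 for Six3 (0.00389), where 0.500% of 10201 genes passed and 0.0980% passed as higher. Six6 lost its call with the top 2% of windows (1.59, adjusted p 0.0563) and kept it in the remaining 14 of 15 alternatives. Six3 kept it in 11 of 15 and lost it with the top 2% of windows (0.60, adjusted p 0.950), with single pixels in place of windows (0.53, 0.140), and without E10 10 µm replicate 1 (0.81, 0.0597) or replicate 2 (0.69, 0.0667). Of the eye field partners, 0 of 8 passed edgeR's adjusted threshold and 1 had an unadjusted p under 0.05, with Pax6 at 0.56 and Otx2 at 0.87. Of the retina progenitor genes 1 of 7 tested passed, the nuclear receptor Rorb (1.73, adjusted p 0.00240). All 7 neuron genes were lower, from -0.78 for the tubulin gene Tubb3 to -1.13 for the RNA-binding protein gene Elavl3.

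The rarer members were too low for that filter, and their counts are given as shares. Over the E10 libraries, pigment windows held 4.62% of all counts (2.66 to 6.92% by library). They held 53 of the 155 Hmx1 counts (34.2%), 26 of 102 for Vax2 (25.5%), 156 of 890 for Six6 (17.5%), 38 of 313 for Rax (12.1%), 313 of 3490 for Six3 (8.97%) and 7 of 84 for Vax1 (8.33%). These shares pool libraries of unequal depth. The level was higher inside in all 6 E10 libraries for Six6 and Six3, in 5 for Hmx1 and Rax, in 4 for Vax2 and in 3 for Vax1. Some of these comparisons rest on few counts. Hmx1 was 24.0 against 4.07 CPM outside and 62.5 against 3.01 CPM in the E10 10 µm libraries, and 102 against 11.2 CPM in E11 10 µm replicate 1. With no filter, Hmx1 was 2.79 on the log2 scale (adjusted p 3.98e-10), Vax2 2.26 (9.33e-05), Rax 1.38 (0.0869) and Vax1 0.88 (0.739). That setting was chosen after seeing the data, and 0.810% of genes passed in it.

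Forebrain, ganglion and face mesenchyme windows gave less. In forebrain windows, where 2.30% of genes passed, Six3 was 0.71 (edgeR adjusted p 0.294). In ganglion windows, where 13.0% of genes passed and 5.24% passed as lower, Six3 was lower (-0.98, adjusted p 0.0432), a call that held in 6 of 13 alternatives and was lost without E10 25 µm, E10 50 µm replicate 1 or 3, E11 25 µm replicate 2 or E12 (adjusted p 0.0736 to 0.118). In face mesenchyme windows, where 3.79% passed, Six3 was -0.65 (adjusted p 0.143), and without E10 50 µm replicate 3 it was -0.96 (0.0202). Lens windows could be drawn in no library.

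**Figure D5:**
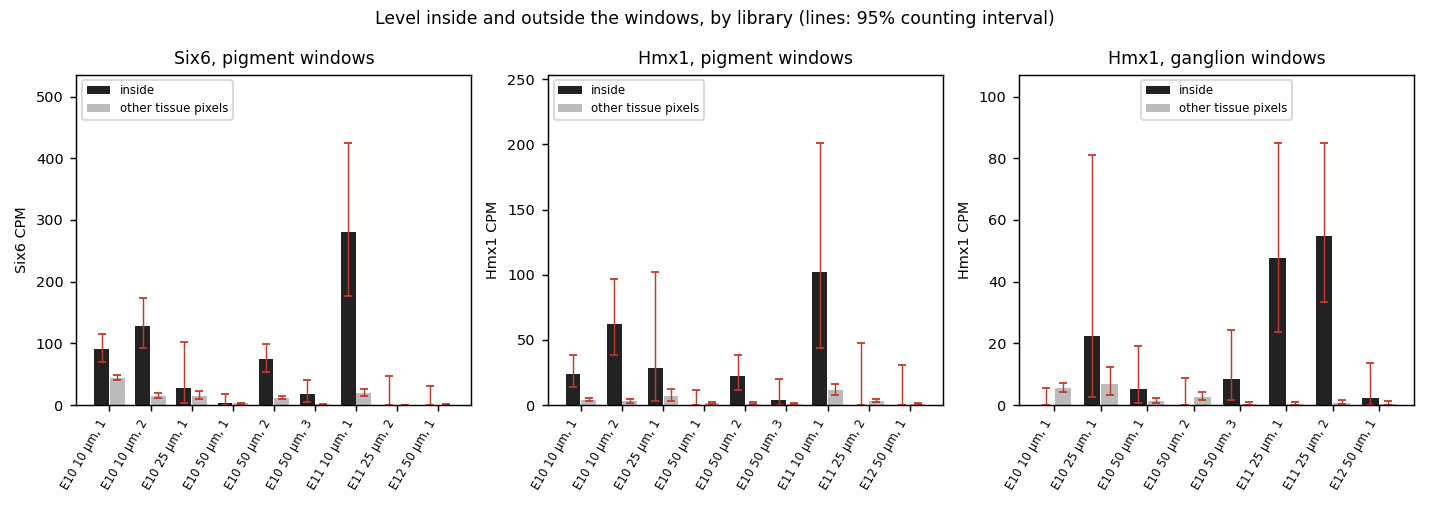
Level in CPM (vertical axis) inside and outside windows drawn on other genes, for Six6 in pigment windows, Hmx1 in pigment windows and Hmx1 in ganglion windows, with 1 pair of bars per library (horizontal axis) and lines for the 95% counting interval. Hmx1 in ganglion windows is high in the E11 25 µm libraries (47.5 and 54.9 CPM inside) and Six6 in pigment windows is highest in E11 10 µm replicate 1 (281 CPM).

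Hmx1 in the E11 25 µm libraries lay mostly in windows rich in ganglion genes, which held few of its E10 counts. Those windows held 11 of 12 Hmx1 counts in E11 25 µm replicate 1 (47.5 CPM against 0.207 outside) and 20 of 25 in replicate 2 (54.9 against 0.684). In the E10 libraries with such windows, they held 0 of 63, 2 of 12, 2 of 16, 0 of 22 and 3 of 7 counts, and at E12 they held 1 of 3. The Hmx1 level was higher inside in 3 of these 5 E10 libraries. Ganglion windows held 3.32 to 5.69% of all counts in the E10 libraries, and 4.57 and 4.74% in the E11 25 µm libraries. The E11 10 µm libraries had no usable ganglion windows, and in replicate 1 Hmx1 was high in pigment windows, as given above. The pooled shares were 83.8% of 37 counts at E11 and 5.83% of 120 at E10. Of those 120 counts, 63 were from E10 10 µm replicate 1, with 0 inside. The difference between stages in the log2 ratio of inside to outside was 5.53 (3 later against 5 E10 libraries, edgeR adjusted p 1.43e-06), in a test of 28691 genes of which 0.763% passed, fitted with no filter on low counts, and 4.46 to 6.43 when any 1 library was left out (adjusted p 1.5e-07 to 0.00305). No other member passed it, and none of the 6 passed the same test in pigment windows, where 0.200% of genes passed and the lowest raw p was 0.0348 (Six6). Neither of these comparisons of stages was among the planned ones. In the libraries with ganglion windows, Hmx1 had 37 counts at E11 and 3 at E12. Which ganglia or levels of the body the sections hold is not in the labels, and its part in the Hmx1 difference was not tested.

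Antibody tags were compared in windows rich in the summed members and elsewhere in 4 E10 sections. The antibody and transcript libraries were paired by the stem of their titles alone. Most member counts were Six3: 449 of 672 in E10 10 µm replicate 2 and 123 of 197 at 25 µm. In E10 50 µm replicates 1 and 3 they were 395 of 513 and 723 of 816. The erythroid cell antibody was lower in member windows in all 4 sections, at 0.737, 0.737, 0.791 and 0.912 of the level elsewhere. Of the 22 antibodies 5 were lower in all 4, the others being those to ESAM, CD41, FCER1A and SiglecH, and 1, to CD201, was higher in all 4 (1.02 to 1.18). CD45, a leukocyte surface protein, was 1.73 of the level elsewhere in the 25 µm section, and 0.900 to 1.19 in the others. The NK-1.1 antibody ranked first in E10 10 µm replicate 2 (1.21) and E10 50 µm replicate 1 (1.48). It was 1.47 at 25 µm, but 0.923 in E10 50 µm replicate 3. No antibody of the panel targets a member, and the ratios carry no test.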

How the data were processed

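Transcripts were measured in 11 libraries of mouse embryo sections and antibody tags in 4. The authors deposited raw counts per gene or antibody and pixel. Per the labels' protocols, frozen sections, a Nextera XT kit and a HiSeq instrument were used. The submitters' processing notes name CASAVA 1.8.2 and build GRCh38, a human build, although the samples are mouse. The aligner, the counting, the use of strand and the collapsing of duplicate reads are not given in the sources used here. The counts therefore may include duplicates, and intervals cover counting error only.

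Members and gene lists were chosen with earlier results of these data known. Members were found by symbol, and a gene with no column in a table was taken as 0. Tissue pixels are those whose total reached 0.1 times the 95th percentile of pixel totals in the library. Groups are stage and pixel width as in the labels. Summed tissue counts were tested over all genes with edgeR 4.0.16 (quasi-likelihood, TMM factors, filtered on low counts, robust, all groups in 1 fit), with Benjamini-Hochberg adjustment and a threshold of 0.05. DESeq2 1.42.0 was an alternative. Domains were the top 5% of windows of 3 by 3 pixels by a list's share of counts, with at least 3 list counts and 20 pixels, and were tested by edgeR with the library as a block. Intervals are exact Poisson or Clopper-Pearson at 95%, and a count of 0 is bounded at 3 counts. Depth was 1563489 to 11998765 tissue counts per library. Named genes were the 6 members, the called genes of the lists, and up to 3 genes most like each member. The fits were tested on simulated counts. Patches and rings, the unfiltered domain fits, the retina windows with and without Lhx2 and the fits of the Hmx1 stage difference with 1 library left out were chosen after seeing the data. The tests of a stage difference inside pigment and ganglion windows were not among the planned comparisons. Values of some listed genes are not reported here, nor is 1 added alternative for the retina windows, in which the Six3 call was lost. GENCODE M21 (GRCm38) gave positions and exon lengths.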

Additional observations from a re-analysis of the deposited data

Results flagged for a closer look

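The log2 ratio of Hmx1 inside ganglion windows to outside differed by 5.53 between stages (E11 and E12 minus E10). The edgeR adjusted p was 1.43e-06, with 3 against 5 libraries. This difference was singled out by a direct test between the stages, which was not among the planned comparisons. Ganglion windows held 11 of 12 and 20 of 25 Hmx1 counts in the E11 25 µm libraries, but 7 of 120 in all E10 libraries with such windows. The level was still higher inside in 3 of these 5 E10 libraries. At E12 the windows held 1 of 3 counts. Sections with these ganglion windows at E11 also had 1224 and 1577 CPM of the liver genes, against 8.25 to 137 CPM at E10. The part of this in the difference was not tested.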

How the results depend on the processing

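No member was called with the opposite sign under any alternative, but Six3 in retina windows went to -0.0126 with windows drawn on Lhx2 alone. All 55 member levels with at least 1 count stayed inside their counting interval when pixels outside the tissue were added. Calls for single members varied more. The shares of all genes called stand above for DESeq2 and for some window settings, and are not given for the rest. The numbers that follow therefore describe how calls moved with the setting and are no result about the members. In the fits of stage and width groups, the E10 25 µm and E12 libraries, each alone in its group, were not left out. The numbers of members called were, at 25 µm between E11 and E10, 5 with DESeq2, 3 with no filter and 1 with robust estimation off (main 0); for the mean of both widths, 4, 3 and 2 (main 1); and between 10 and 25 µm at E11, 5, 3 and 1, and 1 with library totals only (main 0). With no filter, 1 was called at E10 between 10 and 50 µm and 1 between E12 and E10. Leaving out each library in turn gave 0 to 2 at 10 µm, 0 to 4 at 25 µm, 0 to 4 for the mean, 0 to 4 between widths at E11 and 0 to 2 for E12. In retina windows 0 were called with the top 2% of windows and with Lhx2 alone, 2 with the list without Lhx2, 2 with E10 libraries only, 3 with no filter and 1 to 2 with 1 library left out. In pigment windows the numbers were 1 with the top 2% of windows, 1 with single pixels, 4 with no filter and 1 to 3 with 1 left out. In ganglion windows they were 0 with the top 2%, 0 with the top 10%, 0 with E10 libraries only and 0 to 1 with 1 left out. In forebrain windows 1 was called with no filter, and in face mesenchyme windows 2 with no filter and 0 to 1 with 1 left out. Of 5 pairs that kept enough counts after thinning to 1000 counts, 4 stayed above the 95th percentile of Moran's I.

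Over all genes, DESeq2 called 968 (10 µm), 374 (25 µm), 1392 (mean) and 403 (E10 widths), and fits with no filter called 1835, 671, 1988 and 731, 870 between E11 widths and 1328 for E12. The main fit called 608, 83, 656, 20, 378 and 390. Using only the 4 libraries at 10 µm gave 349, and robust estimation off gave 11 for the E10 widths. Leaving out each library gave 190 to 1258, 17 to 218, 144 to 1465, 0 to 164, 33 to 463 and 98 to 969. Retina windows called 224 genes, and 83 with the top 2%, 72 with the list without Lhx2, 109 with single pixels and 1474 with no filter. Pigment windows called 51, 239 with no filter and 29 to 59 with 1 library left out. Forebrain windows called 235, and 22, 405 with the top 10%, 74 with single pixels, 502 with no filter and 144 to 254 with 1 left out. Ganglion windows called 1341, 587 with E10 libraries only and 2356 with no filter, and face mesenchyme windows called 375, 112 with the top 2% and 951 with no filter. In the fits of stage and width groups, the E10 25 µm and E12 libraries were again not left out. The causes of these shifts were not tested.

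The E11 titles share replicate numbers, but same-numbered libraries did not deviate together (r = 0.0544). With the number as a replicate block, 297 genes and 1 member were called between E11 widths, Six3 at 7.01 (adjusted p 0.0143). The domain fits need at least 20 window pixels, so lens windows gave no value under any setting. Depth limits Vax1, Vax2 and Hmx1 most, with at most 63 counts in a library.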
